A study of Mus musculus with 11 samples.

Results

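The comparison covers immortalized preadipocytes from mouse inguinal subcutaneous white fat (im-scWAT cells) before differentiation (day 0) and at day 4 of adipocyte differentiation. It uses 4 of the 11 RNA-seq samples of the series. Among 29955 gene symbols, the 12844 whose FPKM (mapped fragments, scaled to exon length and sequencing depth) reached 1 in 1 or more of these samples were taken, each by the sense transcript that the files mark as its representative. Of these genes, 11673 were coding, 601 lay near a coding gene, 466 were noncoding and 104 antisense.

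The im-scWAT cells had been made by infecting stromal vascular cells with a retrovirus that carries SV40 large T antigen, a viral protein known to bind the p53 and retinoblastoma proteins. At day 0, confluent cells were switched to medium with 0.125 mM indomethacin, insulin at 5 µg/ml, T3 at 1 nM, 3-isobutyl-1-methylxanthine at 0.5 mM and dexamethasone at 5 µM, and after 2 days only insulin and T3 were kept. Both day 4 samples had received this mixture, with 0.5 µM rosiglitazone (ROS) throughout in the sample labelled plus and without it in the sample labelled minus. The day 0 samples carry the same plus and minus labels, and induction with or without ROS started on that day. The labels do not say whether the day 0 cells were collected before that change of medium, and they are taken here as cells before differentiation. Each time point and ROS label has 1 sample, and the labels do not say whether samples of a time point came from separate cultures. The p-values rest on the spread within the pair of each time point, which the fit moderates with that of other genes. At day 4 this spread includes the ROS difference.

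Differentiation of preadipocytes runs through a cascade of transcription factors, in which C/EBPβ and C/EBPδ come before PPARγ and C/EBPα. PPARγ and C/EBPα then switch on the genes for fatty acid uptake, triglyceride storage, lipolysis and adipokines. Dexamethasone activates the glucocorticoid receptor, 3-isobutyl-1-methylxanthine raises cAMP by inhibiting phosphodiesterases, and ROS is a PPARγ ligand.

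The authors' values rested on 4.66 and 4.64 Gb of mapped bases in the day 0 samples and on 5.06 and 3.10 Gb in the day 4 samples. The FPKM differed by 2-fold or more within a pair in 242 genes (1.88%) at day 0 and in 282 genes (2.20%) at day 4. Pearson's r across genes of log2(FPKM + 0.1) was 0.994 and 0.990 within the pairs and between 0.789 and 0.810 across time points, with genes that are not independent replicates. FPKM is a share of the sequenced fragments, so in these bulk samples fewer cells of a type and less RNA per cell cannot be told apart.

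Between day 0 and day 4, 62.1% of the genes tested changed, 3915 upward (30.5%) and 4059 downward (31.6%), at a limma adjusted p under 0.05 on log2(FPKM + 0.1). Changes of at least 2-fold were called in 1911 genes that rose (14.9%) and 1639 that fell (12.8%), and those of at least 32-fold in 131 that rose and 24 that fell. The median log2 fold change of all genes was -0.01, on a scale set by the total of each sample. Both day 4 samples were at least 2 times both day 0 samples in 1584 genes (12.3%), and the reverse held in 1301 genes (10.1%). Over all genes tested, the log2 fold changes within the plus labels and within the minus labels, which share no sample, correlated across genes with a Pearson's r of 0.949. The expression of 624 genes went from under 1 FPKM in both day 0 samples to at least 1 in both day 4 samples, and 417 genes went the other way. A gene silent at day 0 entered the test only through its day 4 level, and the reverse, so counts of members among tested genes describe those genes and not whole lists.

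**Figure D1:**
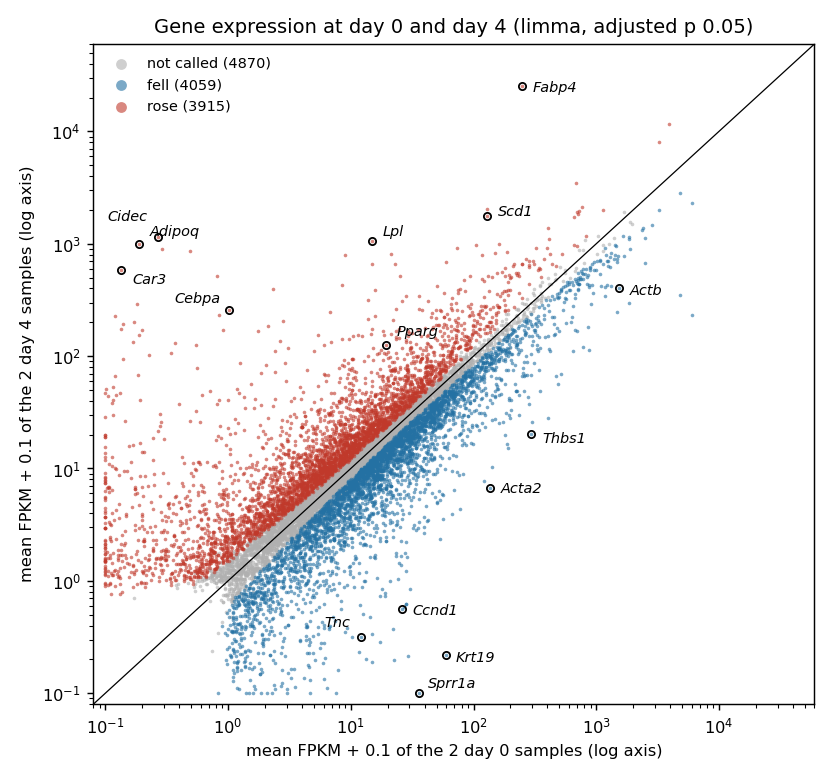
Mean FPKM + 0.1 of the 2 day 0 samples (x axis) against that of the 2 day 4 samples (y axis), both on log axes, for 12844 genes, coloured by the limma call; the line marks equal values. Fabp4 is the highest gene at day 4, Adipoq, Cidec and Car3 lie far above the line, and Sprr1a and Krt19 far below it.

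Adipocyte markers, listed with earlier results of these data known, are described first. Adipoq, Cidec, Cfd, Plin1, Cd36 and Retn were under 1 FPKM at day 0. They entered the test only through their day 4 level and could only rise, so the count below is a description and no check of identity. All 10 adipocyte markers rose, with a median log2 fold change of 9.96 beside -0.01 for all genes. Fabp4, the fatty acid binding protein of adipocytes (mm9 chromosome 3 from 10204343 to 10208576), went from 248 and 249 FPKM at day 0 to 29590 with ROS and 20694 without ROS at day 4. This is 101-fold on average, and the share of Fabp4 in the summed FPKM went from 0.0529% and 0.0507% to 5.85% and 4.30%. Adipoq, which encodes adiponectin (chromosome 16 from 23146609 to 23158041), went from 0.121 and 0.0519 to 1126 and 881 FPKM, with a log2 fold change of 12.41 ± 0.21 (SE) and a limma adjusted p of 1.68e-06. For such genes the day 0 level lies near the pseudocount of 0.1, and the size of the fitted fold change depends on it. Pparg was already expressed in preadipocytes, at 19.0 and 19.3 FPKM, and rose to 115 and 136, or 6.56-fold.

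Of 8 preadipocyte markers with enough expression, 7 fell and Pdgfra rose, beside 31.6% and 30.5% of all genes. Pdgfrb, a growth factor receptor of mural and progenitor cells, went from 70.3 and 73.2 to 9.34 and 16.2 FPKM (log2 fold change -2.53 ± 0.24, adjusted p = 0.000233). Thy1 went from 13.6 and 14.9 to 0.939 and 2.10, and Dlk1 (Pref-1), an inhibitor of adipogenesis, from 1.41 and 1.13 to 0.122 and 0.147. The stem cell antigens Ly6a (Sca-1) and Cd34 fell less, from 424 and 484 to 141 and 167 FPKM and from 32.3 and 36.9 to 8.84 and 12.7. Pdgfra, the receptor most used to mark adipocyte progenitors, had 11.9 and 11.8 FPKM at day 0 and 31.8 and 50.2 at day 4. Its call, like that of Ly6a, did not pass with all 11 samples in the fit. Most markers of other cell types were nearly silent: 8 of 10 macrophage, 9 of 10 endothelial, 9 of 10 epithelial, 9 of 10 bone and cartilage and all 10 skeletal muscle markers stayed under 1 FPKM in each sample, and Ptprc, Itgam and C1qa were listed at 0 throughout. Cd14 and Cd68, which fell from 5.56 and 5.42 to 0.851 and 1.28 and from 2.43 and 2.18 to 1.21 and 0.541 FPKM, were the exceptions among macrophage markers. Among bone and cartilage markers it was Runx2, an osteoblast transcription factor, which fell from 6.19 and 5.72 to 0.708 and 0.946, and among epithelial markers Krt19, described below. Their part in the other results was not tested.

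**Figure D2:**
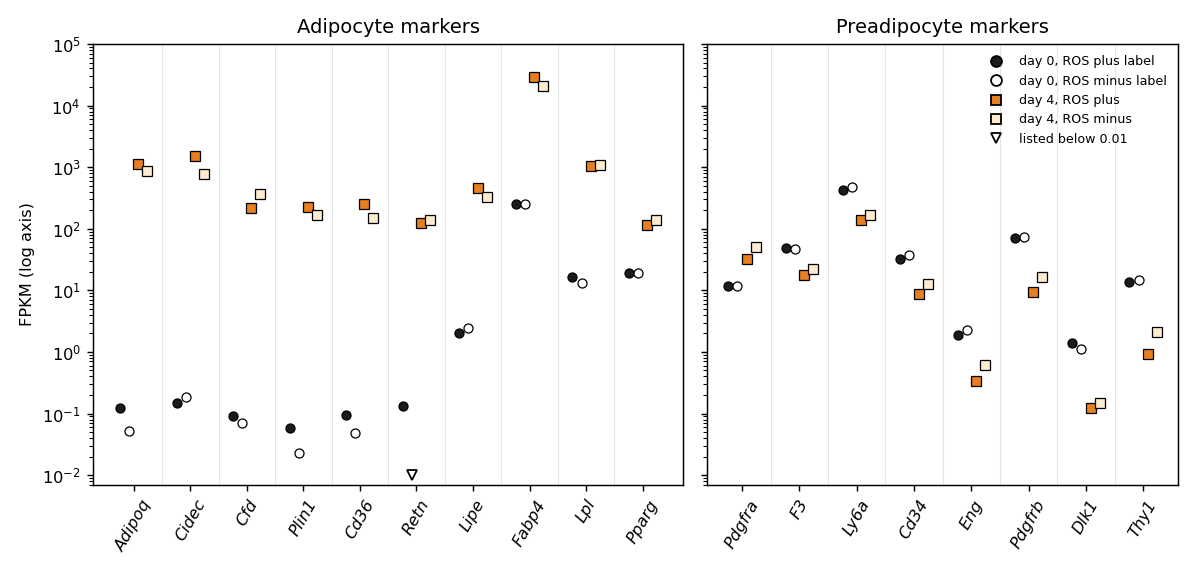
FPKM (log axis) of 10 adipocyte and 8 preadipocyte markers in each of the 4 samples; circles are day 0, squares day 4, and the fill gives the ROS label. Every adipocyte marker is higher in both day 4 samples than in both day 0 samples, and of the preadipocyte markers only Pdgfra is.

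The 10 genes with the largest increase among those with at least 10 FPKM in both day 4 samples were Adipoq, Car3, Cidec, Gpd1, Thrsp, G0s2, Cfd, Plin1, Adig and Cd36. None had more than 0.531 FPKM in a day 0 sample. Car3, a carbonic anhydrase of adipose tissue and muscle, reached 471 and 703 FPKM, and Cidec, a lipid droplet protein, 1507 and 784. Gpd1, which makes glycerol 3-phosphate for triglycerides, reached 1140 and 657, and Cfd, the complement factor adipsin, 220 and 360. The ROS-treated sample was the higher of the day 4 pair for Cidec and Gpd1, whereas the sample without ROS was higher for Car3 and Cfd.

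The 10 genes with the largest decrease among those with at least 10 FPKM in both day 0 samples were Sprr1a, Krt19, Prl2c2, Prl2c3, Il1rl1, Aqp1, Crabp2, Acsbg1, Krt13 and Ccnd1. Sprr1a, a cornified envelope protein that stressed cells express, had 33.4 and 37.7 FPKM at day 0 and was listed at 0 in both day 4 samples. Krt19, an intermediate filament keratin, went from 57.9 and 62.4 to 0.143 and 0.0931. The other 9 epithelial markers, including Epcam and Cdh1, were under 1 FPKM in every sample. Prl2c2 and Prl2c3, members of the prolactin family of proliferin genes, went from 30.4 and 27.8 to 0.149 and 0.0811 and from 22.3 and 22.6 to 0.0459 and 0.150, but they are close copies between which reads may be split. Il1rl1, which encodes the receptor for IL-33, went from 14.6 and 14.9 to 0.0352 and 0.145, and Crabp2, a retinoic acid binding protein, from 15.4 and 19.1 to 0.0875 and 0.286.

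Adipogenic transcription factors were mostly induced. Of 26 tested, 20 rose and 2 fell, beside 30.5% and 31.6% of all genes, and 4 were not called. Their median log2 fold change was 1.63. Cebpa had 0.789 and 1.04 FPKM at day 0 and 270 and 244 at day 4, 281-fold more (log2 fold change 8.00 ± 0.14, limma adjusted p = 1.68e-06). The early factors Cebpb and Cebpd were higher at day 4 as well, Cebpb from 28.4 and 32.2 to 68.9 and 66.0 and Cebpd from 2.09 and 1.67 to 16.4 and 24.0 FPKM. Among the C/EBP genes, the level at day 4 was thus highest for Cebpa, with no overlap with Cebpb. Klf15, a Krüppel-like factor of late adipogenesis, Nr1h3 (LXRα), Ppargc1b (PGC-1β) and Mlxipl (ChREBP), the carbohydrate-sensing factor of lipogenesis, were all under 0.6 FPKM at day 0 and between 6.19 and 49.0 at day 4. Klf4 and Klf5, which act early in adipogenesis, fell from 20.2 and 18.0 to 2.30 and 5.04 and from 1.93 and 2.32 to 0.818 and 0.518, and neither call passed with all 11 samples in the fit.

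Genes for taking up and storing fat rose together, although not in every family. Lipid droplet proteins numbered 13 that rose and 2 that fell of 17, with a median log2 fold change of 2.35. Triglyceride synthesis genes numbered 15 and 3 of 20, with a median of 1.70. Of all genes tested, 30.5% rose and 31.6% fell. Agpat9 and Dgat2, which catalyse the first and the last step of triglyceride synthesis, went from 2.18 and 2.44 to 118 and 102 and from 2.69 and 2.69 to 188 and 222 FPKM. Plin1, the perilipin that guards the lipid droplet, went from 0.0574 and 0.0229 to 223 and 165. Plin3, a perilipin that many tissues express, was lower, at 38.8 and 41.9 against 33.6 and 33.3, a difference whose call was lost when any 1 of the 4 samples was left out. Among 18 genes of fatty acid uptake and binding, 10 rose and 8 fell, beside 30.5% and 31.6% of all genes. Lpl, the lipoprotein lipase, went from 16.7 and 13.1 to 1032 and 1083 FPKM, Cd36, a fatty acid transporter, from 0.0956 and 0.0480 to 256 and 148, and Acsl1, an acyl-CoA synthetase, from 8.94 and 8.65 to 902 and 679. The lipoprotein receptor Lrp1 and the synthetase Acsl5 moved the other way, Acsl5 from 33.9 and 36.9 to 16.7 and 18.1. The number of members of this list that fell was smaller without the day 4 sample with ROS.

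Of 25 genes of de novo lipogenesis, 17 rose and 7 fell, beside 30.5% and 31.6% of all genes. Fasn, the fatty acid synthase, rose 5.72-fold from 80.6 and 85.4 to 495 and 454 FPKM, and Scd1, the stearoyl-CoA desaturase, from 128 and 130 to 1672 and 1892. Pcx, the pyruvate carboxylase that feeds citrate export, rose 29.1-fold from 22.6 and 22.8 to 735 and 587. Thrsp (Spot 14), a lipogenic regulator, was at 0 and 0.0411 at day 0 and at 237 and 217 at day 4. The elongases Elovl6 and Elovl3 moved apart, Elovl6 from 22.3 and 16.2 to 1.73 and 2.61 and Elovl3 from 0.0226 and 0.0229 to 12.2 and 7.50. The desaturase Fads2 fell from 109 and 113 to 54.5 and 49.3.

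The lipolysis list, which holds genes that restrain fat release as well as genes that carry it out, was among the most induced. Of 24 lipolysis genes, 20 rose, beside 30.5% of all genes, and the median log2 fold change was 4.12. Pnpla2 (ATGL), Lipe (hormone-sensitive lipase) and Mgll (monoglyceride lipase), which remove the fatty acids of a triglyceride in turn, reached 494 and 369, 451 and 334, and 122 and 92.7 FPKM from 8.44 and 8.41, 2.02 and 2.42, and 0.189 and 0.30. G0s2, an inhibitor of ATGL, rose beside them, from 0.531 and 0.253 to 990 and 717, and at day 4 its FPKM was above that of Pnpla2 in each sample. Adrb3, the β3-adrenergic receptor, was listed at 0 at day 0 and had 2.78 and 2.89 FPKM at day 4. The regulatory subunits of protein kinase A Prkar1a and Prkar2a had slightly lower values, 162 and 171 against 105 and 123 and 23.8 and 22.1 against 18.7 and 18.8, and only the change of Prkar1a kept its call without any 1 sample. Prkar2b, the regulatory subunit typical of fat, named after its values were seen, rose from 19.2 and 17.4 to 174 and 163.

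Among 25 adipokines and secreted proteins, 18 rose and 5 fell, beside 30.5% and 31.6% of all genes. The median log2 fold change was 4.01. Besides Adipoq and Cfd, Orm1 (orosomucoid), Retn (resistin) and Lcn2 (lipocalin 2) rose, to 169 and 171, 125 and 141, and 11.9 and 15.2 FPKM, from under 0.15 at day 0. Metrnl (meteorin-like) fell from 12.2 and 12.6 to 2.04 and 2.52. Lep, which encodes leptin, was at 0 in 3 samples and at 0.0196 FPKM in the day 4 sample without ROS, so it was not tested.

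For insulin signalling and glucose entry, 17 of 29 genes rose and 10 fell, the latter a share near the 31.6% of all genes, and the transporters moved in opposite directions. Slc2a4, the insulin-responsive transporter GLUT4, went from 0.0454 and 0.121 to 75.4 and 59.3 FPKM (log2 fold change 8.55 ± 0.24), and Slc2a1, the ubiquitous GLUT1, from 60.4 and 64.4 to 16.5 and 17.0 (-1.89 ± 0.09). Hexokinases did the same, Hk1 falling from 58.6 and 63.6 to 15 and 16.5 while Hk2, whose pair was chosen after its values were seen, rose from 6.21 and 6.59 to 19.9 and 18.8. Sh2b2 (APS), an adaptor of the insulin receptor, rose from 1.23 and 1.25 to 48.6 and 38.3 FPKM, and Tbc1d4 (AS160), which holds GLUT4 vesicles back, from 0.965 and 0.966 to 10.5 and 10.6. The number of members that fell was 6 when the day 0 plus sample or the day 4 sample with ROS was left out.

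**Figure D3:**
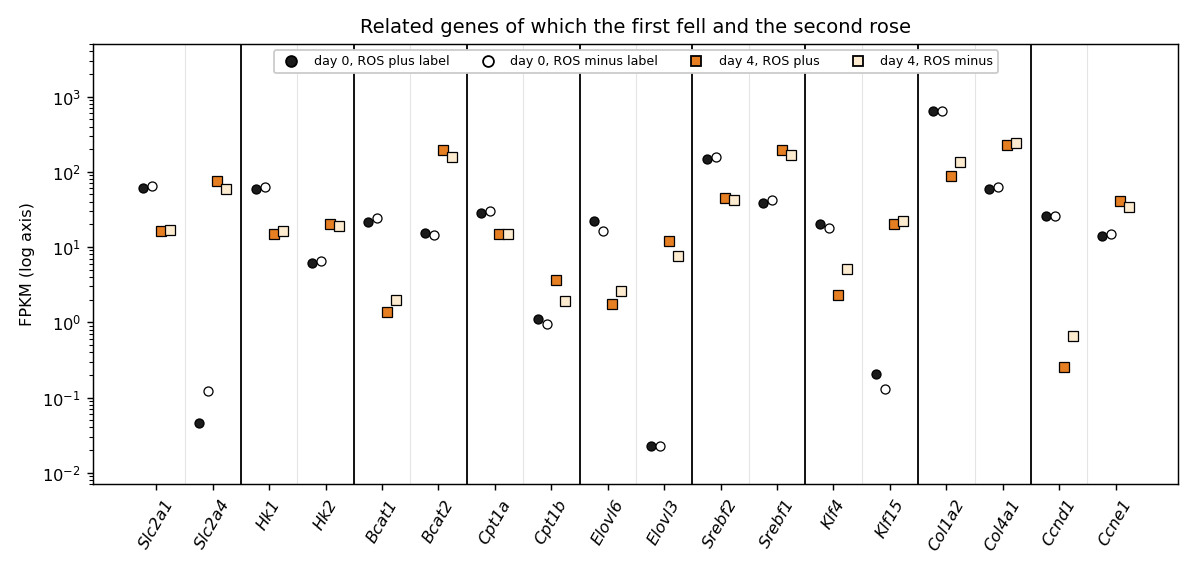
FPKM (log axis) in each of the 4 samples for 9 pairs of related genes in which the gene on the left fell and that on the right rose, chosen after their values were seen; circles are day 0 and squares day 4. In each pair the day 0 and day 4 values of both genes do not overlap.

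Further pairs of related genes, chosen in the same way, moved in opposite directions. Bcat1, the cytosolic branched-chain aminotransferase, fell from 21.8 and 24.4 to 1.36 and 2.00 FPKM, and Bcat2, the mitochondrial enzyme, rose from 15.2 and 14.4 to 194 and 156. Srebf2, the sterol-responsive factor, fell from 146 and 155 to 44.8 and 42.2, whereas Srebf1, the lipogenic factor, rose from 39.0 and 41.7 to 193 and 166. Of the carnitine palmitoyltransferases, Cpt1a fell from 28.5 and 29.8 to 14.8 and 14.9, and Cpt1b, the muscle and brown fat form, rose from 1.11 and 0.949 to 3.61 and 1.91. Cpt1a remained the more expressed of the pair at day 4.

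Oxidative metabolism rose in nearly all its members. Mitochondrial fatty acid oxidation had 28 of 31 genes up (median log2 fold change 1.65), the TCA cycle with pyruvate dehydrogenase 28 of 32 (1.59), branched-chain amino acid catabolism 27 of 29 (1.98), peroxisomal oxidation 28 of 29 (1.74) and the respiratory complexes with ATP synthase 76 of 81 (1.04). These shares compare with 30.5% among all genes tested. The median was lowest for the respiratory chain, where 43 of 81 genes were called with an increase of at least 2-fold. Cycs, cytochrome c, rose 7.31-fold from 42.3 and 42.5 to 362 and 259 FPKM, and Uqcrc2, a core protein of complex III, 4.07-fold from 36.1 and 38.2 to 168 and 134. Cox6a2 and Cox8b, the cytochrome oxidase isoforms of muscle and brown fat, reached only 6.99 and 4.17 and 1.25 and 1.58. Atpif1, the inhibitor of ATP synthase, was the 1 member that fell, from 211 and 230 to 117 and 122.

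Acadm, the medium-chain acyl-CoA dehydrogenase, rose from 48.9 and 51.2 to 461 and 377 FPKM, and Idh3a, a subunit of NAD-dependent isocitrate dehydrogenase, from 37.5 and 34.6 to 390 and 298. In the peroxisome, Cat (catalase) rose 20.4-fold from 24.9 and 25.6 to 507 and 523, and Pex11a, which promotes peroxisome division, 20.9-fold from 2.92 and 2.84 to 64.4 and 56.0. Aldh6a1, of valine breakdown, rose 30.9-fold from 3.09 and 2.53 to 86.4 and 87.5. The pyruvate dehydrogenase kinases differed, with Pdk2 up from 4.20 and 5.00 to 36.6 and 30.4 and Pdk3 down from 33.1 and 30.4 to 12.3 and 14.3. In the fit of all 11 samples, 48 of the 81 respiratory genes were called upward.

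Sterol synthesis went the other way from fatty acid synthesis. Of 27 cholesterol genes, 15 fell and 4 rose, beside 31.6% and 30.5% of all genes, and 8 were not called. The median log2 fold change was -0.40. Srebf2, whose values are given above, was among those that fell. Insig1, which retains SREBP in the endoplasmic reticulum, rose from 63.9 and 67.7 to 367 FPKM with ROS and 170 without. Cyp51 and Dhcr7 rose as well, Cyp51 from 63.2 and 65.3 to 103 and 105.

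The contractile and cytoskeletal genes mostly fell. Of 50 genes of actomyosin and targets of serum response factor (SRF), 42 fell and 6 rose, beside 31.6% and 30.5% of all genes. The other 2 were not called, and the median log2 fold change was -1.86. Acta2, smooth muscle α-actin (chromosome 19 from 34315581 to 34329826), went from 131 and 140 FPKM to 2.52 with ROS and 10.7 without, with a log2 fold change of -4.67 ± 0.59 and a limma adjusted p of 0.000754. Tagln (SM22) went from 23.6 and 27.8 to 0.646 and 1.94, and Ctgf and Ankrd1, targets of YAP as well as SRF, from 50.5 and 55.1 to 0.881 and 3.64 and from 28.8 and 28.6 to 0.523 and 2.56. For these 4 genes the day 4 sample without ROS kept more expression than the sample with ROS. The cytoplasmic actins Actb and Actg1, named after their values were seen, fell from 1490 and 1590 to 366 and 445 and from 1443 and 1518 to 223 and 271 FPKM. Reads of Actb and Actg1, and of Acta2 and Actg2, may be split between near-identical copies, as those of Orm1 and Orm2 may be. Among the 6 members that rose were Myh11, Des and Fhl1, all under 1.4 FPKM at day 0, Fhl1 reaching 11.1 and 8.90.

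Several motifs were searched in promoters of the actomyosin, cell cycle, lipid droplet and respiratory lists. Those given here are a selection, mainly from the lists that fell. The CArG box, the SRF recognition sequence of CC, 6 bases that are A or T, and GG, was searched on both strands from 250 bases before to 50 after the start in the RefSeq promoters of GRCm38.p6. It was present in 8 of the 41 actomyosin genes that have a promoter in that table (19.5%) beside 1.81% of the 27025 genes of the whole table. The list was assembled in part from known SRF targets, so this share is not independent of how the list was chosen. Of these 8 genes 6 fell, Fhl1 rose and Vcl was not called, and of the 33 without a box 28 fell. A match of letters is a description and does not show a bound site. The windows of Myl9, a myosin light chain that went from 36.4 and 42.6 to 2.82 and 9.35 FPKM, and of Actg1, both chosen after their values were seen, are shown from 200 bases before to 20 after the start, with the box in capitals, at GRCm38.p6 chr2:156775264-156775483 on the plus strand and chr11:120348476-120348695 on the minus strand.
Myl9: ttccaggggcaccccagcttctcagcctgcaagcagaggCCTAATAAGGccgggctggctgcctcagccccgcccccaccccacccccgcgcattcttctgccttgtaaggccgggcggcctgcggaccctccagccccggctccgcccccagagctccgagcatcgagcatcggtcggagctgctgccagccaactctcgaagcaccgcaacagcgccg
Actg1: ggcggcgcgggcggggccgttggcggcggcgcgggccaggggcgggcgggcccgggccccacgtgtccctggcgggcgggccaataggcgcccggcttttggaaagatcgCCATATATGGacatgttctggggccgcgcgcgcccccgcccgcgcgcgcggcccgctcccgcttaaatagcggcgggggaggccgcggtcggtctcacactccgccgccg

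Of 55 collagen and matrix genes, 29 fell, 15 rose and 11 were not called, beside 31.6% and 30.5% of all genes. Among those that fell were Fn1 (fibronectin) from 460 and 474 to 50.2 and 82.8 FPKM, Col1a1 from 412 and 420 to 90.8 and 132, Thbs1 from 302 and 291 to 11.1 and 29.6, and Tnc (tenascin C) from 12.1 and 11.8 to 0.169 and 0.271. Among those that rose were Lama4, a laminin chain, from 2.14 and 2.31 to 35.8 and 36.5, Nid2 from 0.799 and 0.699 to 5.62 and 8.98, and Col15a1 from 0.193 and 0.174 to 27.7 and 24.5. Col4a1 and Col4a2, the chains of basement membrane collagen, named after their values were seen, were 3.85-fold and 3.03-fold higher. Col3a1 had 269 and 272 FPKM at day 0 and 172 and 269 at day 4, and its log2 fold change of -0.33 ± 0.20 was not called (limma adjusted p = 0.204). Without the day 4 sample lacking ROS it was -0.65 and called.

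Of 26 matrix proteases and inhibitors, 13 fell and 6 rose, beside 31.6% and 30.5% of all genes. The inhibitors Timp1 and Timp3 fell from 117 and 126 to 7.36 and 8.01 and from 50.2 and 50.4 to 2.52 and 7.43 FPKM. The secreted proteases Adamts12 and Adamts15 rose from 1.29 and 1.23 to 18.6 and 25.6 and from 0.0215 and 0.0216 to 3.39 and 4.97, and the membrane protease Adam12 from 3.83 and 3.71 to 52.1 and 54.4. Of 11 Adamts genes tested, counted after their values were seen, 3 rose, 3 fell and 5 were not called, shares near those of all genes. The preadipocyte and anti-adipogenic list of 34 genes had 26 that fell and 4 that rose, beside 31.6% and 30.5% of all genes. Inhba, the activin A subunit, went from 10.5 and 7.44 to 0.227 and 0.267, and Wisp2, a secreted factor of preadipocytes, from 41.8 and 43.8 to 3.07 and 3.71. The members that rose were Irf3, Irf4 and Ddit3 besides Pdgfra, Irf4 from 0.240 and 0.278 to 3.02 and 4.88. Of 51 Wnt, TGF-β and BMP pathway genes, 29 fell and 7 rose, beside 31.6% and 30.5% of all genes. The antagonists Fst (follistatin), which binds activin, and Chrdl1, which binds BMP, rose to 5.06 and 8.93 and to 4.67 and 4.68 from under 0.5.

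Cell cycle genes fell modestly. Of 63, 43 fell and 9 rose, beside 31.6% and 30.5% of all genes, and 11 were not called. The median log2 fold change was -0.67, and 14 of those that fell did so by at least 2-fold. The exception in size was Ccnd1, cyclin D1 (chromosome 7 from 152115836 to 152125830), which went from 25.8 and 26.2 to 0.258 and 0.656 FPKM, a 56.9-fold decrease (log2 fold change -5.65 ± 0.33, limma adjusted p = 3.89e-05). Ccnb1, the mitotic cyclin B1, was only 1.40-fold lower, at 66.0 and 65.8 against 92.2 and 92.9, and its call did not pass with all 11 samples in the fit. Kif23 and Mybl2, of cytokinesis and of G2 gene control, fell from 29.8 and 24.1 to 5.49 and 6.85 and from 14.6 and 15.4 to 4.56 and 4.48. Mki67, the proliferation marker, had 44.8 and 20.5 FPKM in the day 0 samples and 14.5 and 18.7 at day 4, so the day 0 pair spread more than the time points differed (adjusted p = 0.0646). Without the day 0 minus sample its log2 fold change was -1.44 and called. Several inhibitors of cyclin-dependent kinases rose, with Cdkn1c (p57) from 0.780 and 1.11 to 17.8 and 22.1, Cdkn2c (p18) from 36.6 and 40.6 to 118 and 109, and Cdkn1a (p21) from 108 and 116 to 240 and 204, while Cdkn2a, Cdkn2b and Cdkn2d, named after their values were seen, were not called. Rb1, which encodes a target of large T antigen, rose from 2.85 and 2.28 to 9.53 and 9.83.

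DNA replication genes moved little. Of 52, 18 fell, a share near the 31.6% of all genes, 7 rose and 27 were not called, none changed by 2-fold, and the median log2 fold change was -0.16. The decrease was largest for Mcm10, a replication initiation factor, from 16.1 and 16.7 to 7.69 and 9.24 FPKM, and the increase for Rfc1, a subunit of the clamp loader, from 28.9 and 23.1 to 41.4 and 43.8. Pcna, the replication clamp, named after its values were seen, had 284 and 271 at day 0 and 273 and 278 at day 4. The number that fell was 11 without the day 0 plus sample and 7 without the day 0 minus sample, and the number that rose was 3 without the day 4 sample with ROS.

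The promoters of the cell cycle list were examined for CCAAT and for the cell cycle homology region (CHR), TTTGAA, on both strands in the same windows. CHR letters were in 27 of 51 genes with a promoter (52.9%, beside 20.2% of the whole table) and CCAAT in 36 (70.6%, beside 41.1%). Among the 27 genes with CHR letters 21 fell and 1 rose, and among the 24 without them 13 fell and 5 rose. For CCAAT, 25 of the 36 genes with it fell and 4 rose, and 9 of the 15 without it fell and 2 rose. CCAAT was also in 58.5% of the actomyosin, 56.2% of the lipid droplet and 41.2% of the respiratory promoters. No test compared these counts, and the whole table also holds genes that were not among those tested. As for the CArG box, a match of letters does not show a bound site. Ccnb2, cyclin B2, and Cdc20, an activator of the anaphase-promoting complex, hold both, and their values, seen before they were chosen, went from 79.3 and 81.0 to 41.4 and 45.6 and from 101 and 107 to 47.0 and 40.1 FPKM. They are shown over the same distance, with both motifs in capitals, at GRCm38.p6 chr9:70421535-70421754 and chr4:118437324-118437543, both on the minus strand.
Ccnb2: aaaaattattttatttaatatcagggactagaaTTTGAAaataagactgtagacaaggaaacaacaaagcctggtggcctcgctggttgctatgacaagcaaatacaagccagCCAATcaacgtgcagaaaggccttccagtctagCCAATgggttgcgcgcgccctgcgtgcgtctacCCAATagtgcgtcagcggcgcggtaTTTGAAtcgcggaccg
Cdc20: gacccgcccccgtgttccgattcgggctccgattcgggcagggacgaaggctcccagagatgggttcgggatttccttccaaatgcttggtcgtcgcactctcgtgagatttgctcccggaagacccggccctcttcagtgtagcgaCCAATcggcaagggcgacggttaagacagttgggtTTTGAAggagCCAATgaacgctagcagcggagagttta
The Ccnb2 window holds CCAAT at 3 places that start at bases -87, -54 and -21 from the start site.

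**Figure D4:**
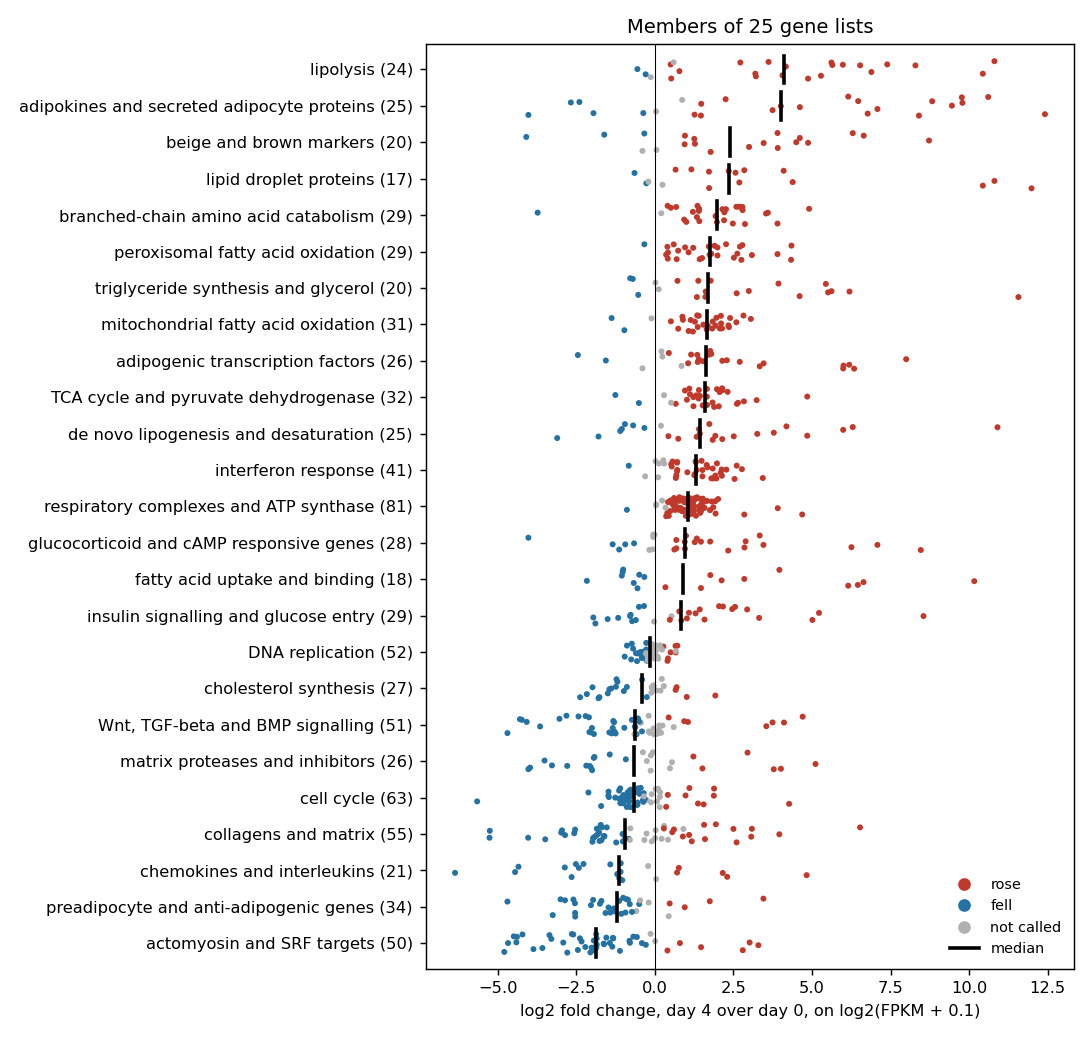
Log2 fold change (day 4 over day 0, on log2(FPKM + 0.1)) of every tested member of 25 gene lists, coloured by the limma call, with a bar at the median and the number tested in parentheses. Lipolysis has the highest median (4.12) and the actomyosin and SRF list the lowest (-1.86), and points of DNA replication lie within 1 of 0.

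Genes known to respond to components of the induction mixture were mostly higher at day 4. Of 28 glucocorticoid- and cAMP-responsive genes, 18 rose and 5 fell, beside 30.5% and 31.6% of all genes. Fkbp5 and Tsc22d3 (GILZ), classical targets of the glucocorticoid receptor, rose from 23.0 and 23.5 to 158 and 180 and from 5.94 and 6.12 to 61.4 and 73.5 FPKM. Zbtb16 (PLZF) was listed at 0 in both day 0 samples and had 6.14 and 9.24 at day 4. Nr4a2, an immediate early gene of cAMP signalling, fell from 1.41 and 1.38 to 0.456 and 0.528.

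Interferon-stimulated genes formed a further group with a common direction. Of 41 members, 34 rose and 1 fell, beside 30.5% and 31.6% of all genes, and 6 were not called. The median log2 fold change was 1.31. Gbp3, a guanylate binding protein, rose 10.9-fold from 14.2 and 14.6 to 149 and 166 FPKM, and Psmb9, a subunit of the immunoproteasome, from 5.97 and 7.68 to 48.7 and 45.0. Ifit2 had 11.1 and 7.71 at day 0 and 4.13 and 6.44 at day 4, and its call was lost without the day 0 plus sample or the day 4 sample with ROS. With all 11 samples in the fit, 16 members were called upward. Chemokines and interleukins mostly fell (14 of 21, with 5 that rose, beside 31.6% and 30.5% of all genes). Ccl2 and Ccl7, which attract monocytes, and Csf1, named after their values were seen, fell 4.50-fold, 5.30-fold and 5.01-fold from 351 and 328, 256 and 264, and 202 and 205 FPKM. Cxcl9, an interferon-inducible chemokine, rose from 0.301 and 0.353 to 1.86 and 2.16.

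Of 32 beige and brown fat markers, 12 stayed under 1 FPKM in every sample and were not tested, among them Ucp1 and, named after their values were seen, Cidea, Prdm16, Dio2, Otop1 and Zic1. Among the 20 others, 15 rose and 3 fell, beside 30.5% and 31.6% of all genes. Several of those that rose, Slc36a2, Kcnk3 and Ppara among them, reached 1 FPKM only at day 4. Slc36a2 (PAT2), an amino acid transporter of the adipocyte surface, went from 0 and 0.00877 to 47.2 and 40.9 FPKM, Kcnk3, a potassium channel, from 0.0501 and 0.0616 to 17.6 and 13.6, and Ppara from 0.0743 and 0.0631 to 1.57 with ROS and 0.988 without. Tnfrsf9 (CD137), a marker given for beige precursors, fell from 4.08 and 4.82 to 0.167 and 0.167. Ucp1, the uncoupling protein of thermogenic fat, was listed at 0.0360 FPKM with ROS and at 0 without ROS at day 4, and at 0 and 0.0261 at day 0. Pck1, of glyceroneogenesis, had 0.150 and 0.196 at day 4 after 0 at day 0, and neither gene reached the minimum for the test. Kdm3a, the gene for the demethylase JMJD1A that the study is about, fell slightly, from 23.2 and 20.9 to 15.1 and 15.8 FPKM (log2 fold change -0.51 ± 0.10, limma adjusted p = 0.00523).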

How the data were processed

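RNA-seq of 4 im-scWAT samples was used. The authors aligned TruSeq reads to UCSC transcripts and mm9 with Burrows-Wheeler aligner, realigned them locally, and deposited strand-specific FPKM per transcript. The deposited files also give the log10 and the log2 of the FPKM and a signal column of mapped bases, from which depth was taken. No read counts were used. Sense rows with the representative mark and an FPKM of at least 1 in any sample were tested on log2(FPKM + 0.1) with limma 3.58.1 (R 4.3.3, trend, two-sided, Benjamini-Hochberg, threshold 0.05), without a block. On simulated data the fit recovered 186 of 200 4-fold changes with 9 false calls among 12844 genes. Noise there was independent between samples, and only those 200 genes, picked among the better expressed, were changed. The 9 false calls are therefore no error rate for the real calls. Tables used Python 3.11.15 and pandas 2.3.3.

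Members and gene lists were chosen with earlier results of these data known. Named genes are 38 key genes, up to 4 that rose and 3 that fell with the largest changes in each of 32 lists, and the 10 largest in each direction with at least 10 FPKM in both samples of the higher group. Promoter shares are given only for lists with at least 80% of members in the RefSeq table. That share was 73.3% for all genes tested so that no share is given for them. The pseudocount, minimum, transcript, scaling, trend, samples, block and call rule were varied. A gene of low FPKM rests on few bases, as 100 mapped bases on 2 kb of exon give 0.00989 to 0.0161 FPKM. Some named genes are not reported here.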

Additional observations from a re-analysis of the deposited data

How the results depend on the processing

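The 3915 genes that rose and 4059 that fell became 2243 and 2027 with all 11 samples in the fit, where 2 samples of transduced cells add to the spread, and 1911 and 1639 when a 2-fold change was also required. Leaving out each sample in turn, with a time point's lone sample assumed to vary like the other pair, gave 3055 to 3327 that rose and 3052 to 3665 that fell. Other pseudocounts, minima, transcripts, scaling and no trend gave 2978 to 4289 and 3348 to 4404. Among the settings tried, 1 called gene changed sign, with the highest transcript per symbol in place of the representative one. Of 185 named genes 183 were called.

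Whether the ROS labels shared by the time points pair the samples cannot be told, as the day 4 deviations also hold the ROS difference. Deviations of samples with the same label correlated at -0.25 across genes. With the label as a replicate block, 3471 genes rose and 3515 fell. Of the named genes given here, Prkar2a and Plin3 lost their call under that block and Mki67 gained it. The cause was not tested. Low FPKM limit some lists, as with a minimum of 5 FPKM the counts were 17 in place of 26 preadipocyte and anti-adipogenic genes that fell and 9 in place of 15 beige and brown markers that rose.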

Other observations

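Gene families taken by symbol, chosen after the values were seen, are given next, and some of their members are also in the lists above. Of all genes tested, 30.5% rose and 31.6% fell. Among mitochondrial ribosomal proteins 60 of 76 rose and 2 fell, with a median log2 fold change of 0.55, whereas among cytosolic ribosomal proteins 64 of 74 fell and 2 rose, with a median of -0.59. The cytosolic count depended on single samples, as 24 fell without the day 0 minus sample, 30 without the day 4 sample with ROS and 23 without the day 4 sample lacking ROS, and 35 fell with the ROS label as a block. All 15 peroxins rose, led by Pex11a and by Pex16, a peroxisomal membrane assembly factor, which went from 7.05 and 5.86 to 79.4 and 56.5 FPKM. All 4 tropomyosins, which are also among the actomyosin genes counted above, fell, Tpm1 from 390 and 425 to 24.9 and 31.5.

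S100 calcium-binding proteins were among the most abundant genes that fell, with 8 of 10 lower. S100a4 went from 5578 and 6547 to 201 and 260 FPKM and S100a6 from 4228 and 5434 to 326 and 371. S100a1 rose from 148 and 162 to 329 and 242. Of 9 integrins, 6 fell and 3 rose, the latter a share near the 30.5% of all genes. Itga5, of the fibronectin receptor, went from 108 and 113 to 19.1 and 25. The laminin-binding subunits Itga6 and Itga7 rose from 3.35 and 2.86 to 32.3 and 26.2 and from 1.72 and 1.92 to 17.3 and 12.8. Among aldehyde dehydrogenases, Aldh1a7 rose from 0.570 and 0.334 to 134 and 118 and Aldh3b2 was listed at 0 at day 0 and at 21.7 and 18.0 at day 4. Of 25 Hox genes, 12 fell and 5 rose, beside 31.6% and 30.5% of all genes. Hoxc4 fell from 4.53 and 3.95 to 0.828 and 0.833, and Hoxa4 rose from 1.38 and 1.64 to 8.49 and 6.42.

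In the day 0 pair, Cenpe and Cenpf, of the kinetochore, had 20.5 and 8.98 and 10.2 and 4.24 FPKM, so that like Mki67 they were more than 2-fold apart.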
